A study of Homo sapiens with 9 samples.

Results

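The matrix metalloproteinases (MMP), the ADAMTS proteinases and the tissue inhibitors of metalloproteinases (TIMP) were examined in PC-3 cells treated with decitabine or with decitabine together with S-adenosylmethionine (SAM). Members were taken by symbol alone: protein-coding genes named MMP, ADAMTS or TIMP followed by a number. This gave 46 genes of the 19892 protein-coding genes in the files, made up of 23 MMP, 19 ADAMTS and 4 TIMP genes. MMP23A matched the naming pattern but is annotated as a pseudogene and was left out.

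MMP and ADAMTS proteins are zinc-dependent endopeptidases that are made as inactive proenzymes and cut the proteins of the extracellular matrix, with collagens, gelatins and basement membrane proteins among the targets of MMPs and the large proteoglycans, procollagens and von Willebrand factor among those of ADAMTS enzymes. TIMP proteins bind the active site of these enzymes and block it, so that proteolysis around a cell depends on the balance of enzyme and inhibitor. In prostate cancer these families are best known from work on invasion and bone metastasis.

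PC-3 is an established human cell line from a bone metastasis of a prostate carcinoma. All cells were cultured for 5 days, the control cells with vehicle, the decitabine-treated cells with 1 µM decitabine and the combination-treated cells with 1 µM decitabine and 200 µM SAM. Decitabine is a cytidine analogue that is built into DNA and traps DNA methyltransferases, and SAM is the methyl donor of those enzymes. Each group had 3 RNA-seq libraries of one cell line, with no SAM-only group analysed here, so SAM was seen only on top of decitabine.

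The libraries held between 21934307 and 22489684 estimated counts. Nothing in the labels says whether the replicates were separate cultures, so the p-values measure only the spread between these libraries, which may be technical. Gene positions are those of the GENCODE annotation of GRCh38. Levels are given as CPM (counts scaled to a library of 1e6) after TMM scaling, folds as log2 fold changes (log2FC), and calls as adjusted p under 0.05 from edgeR's quasi-likelihood test over 18532 genes with Benjamini-Hochberg adjustment. Of the 5 genes expected in PC-3 (KRT8, KRT18, EPCAM, CD44 and VIM), 5 were detected in every group, and KLK3, which PC-3 cells lack, was at 0. These 5 summed to 2070 to 2220 CPM in the control libraries, 1580 to 1670 CPM under decitabine and 1400 to 1490 CPM under the combination treatment. VIM and KRT18 were downregulated and KRT8 and CD44 upregulated by both treatments, and EPCAM was not called against control. The summed level of 7 fibroblast markers was 3.36 to 5.40 CPM in the control libraries, 92.0 to 138 CPM under decitabine and 75.9 to 108 CPM under the combination treatment, with COL1A1 (2.98, 57.6 and 47.2 CPM on average in the control, decitabine and combination groups) and COL1A2 (0.614, 45.7 and 33.3 CPM) at the head. LUM was at 0.116, 6.74 and 5.28 CPM, DCN at 0.0334, 1.10 and 1.29 CPM and THY1 at 0, 5.48 and 5.68 CPM. FAP was at 0, 0.155 and 0.230 CPM and PDGFRB at 0.481, 0.366 and 0.478 CPM. A list of 5 leukocyte markers, carried almost wholly by CD68, summed to 38.3 to 48.2, 223 to 301 and 105 to 183 CPM. The 4 endothelial markers summed to 25.9 to 28.0, 41.5 to 60.9 and 50.9 to 59.4 CPM. Of these, PECAM1 was at 10.09, 35.13 and 39.68 CPM on average, and KDR, at 16.55, 15.13 and 15.03 CPM, was not called. The sums of the fibroblast, leukocyte and endothelial lists moved with the treatments as many members did, and the part of these genes in the results was not tested.

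Most of the members with enough counts to be tested were upregulated by decitabine, and most were upregulated by the combination treatment. Of the 46 members, 29 passed the filter on low counts (14 MMP, 12 ADAMTS and 3 TIMP genes) and 17 did not. Decitabine changed 24 of the 29, or 82.8%, against 68.8% of all genes tested. There were 22 upregulated members, against 36.3% of all genes, and 2 downregulated ones, MMP14 and MMP16, against 32.5% of all genes. The median log2FC of the 29 members was 1.54, while over all genes it was 0.035, and 16 members were called with a log2FC above 1, as were 22.7% of all genes. For 25 members the 3 decitabine libraries and the 3 control libraries did not overlap, a pattern shared by 72.9% of all genes. A gene that is low in control cells enters the test through the treated libraries where it is high, so these figures describe the members that passed and are no test of the families. In bulk RNA, more cells carrying a transcript and more transcript per cell cannot be told apart.

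The combination treatment changed 23 of the 29 members against control, or 79.3%, where 67.2% of all genes were called. Of these, 21 were upregulated (35.9% of all genes) and 2 were downregulated (31.3% of all genes), with a median log2FC of 1.28 beside 0.048 over all genes. Both comparisons with control use the same 3 control libraries. Between the combination treatment and decitabine alone, 7 of the 29 members were called, or 24.1%, against 15.7% of all genes. Higher with the combination treatment were 3 members, MMP15, MMP16 and ADAMTS1 (7.67% of all genes), and lower were 4, MMP13, MMP19, ADAMTS7 and ADAMTS13 (8.02% of all genes). The median log2FC between the treatments was -0.22, with 20 members lower and 9 higher, beside 0.0021 over all genes, and the libraries of both treatments did not overlap for 11 members, against 34.1% of all genes.

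**Figure D1:**
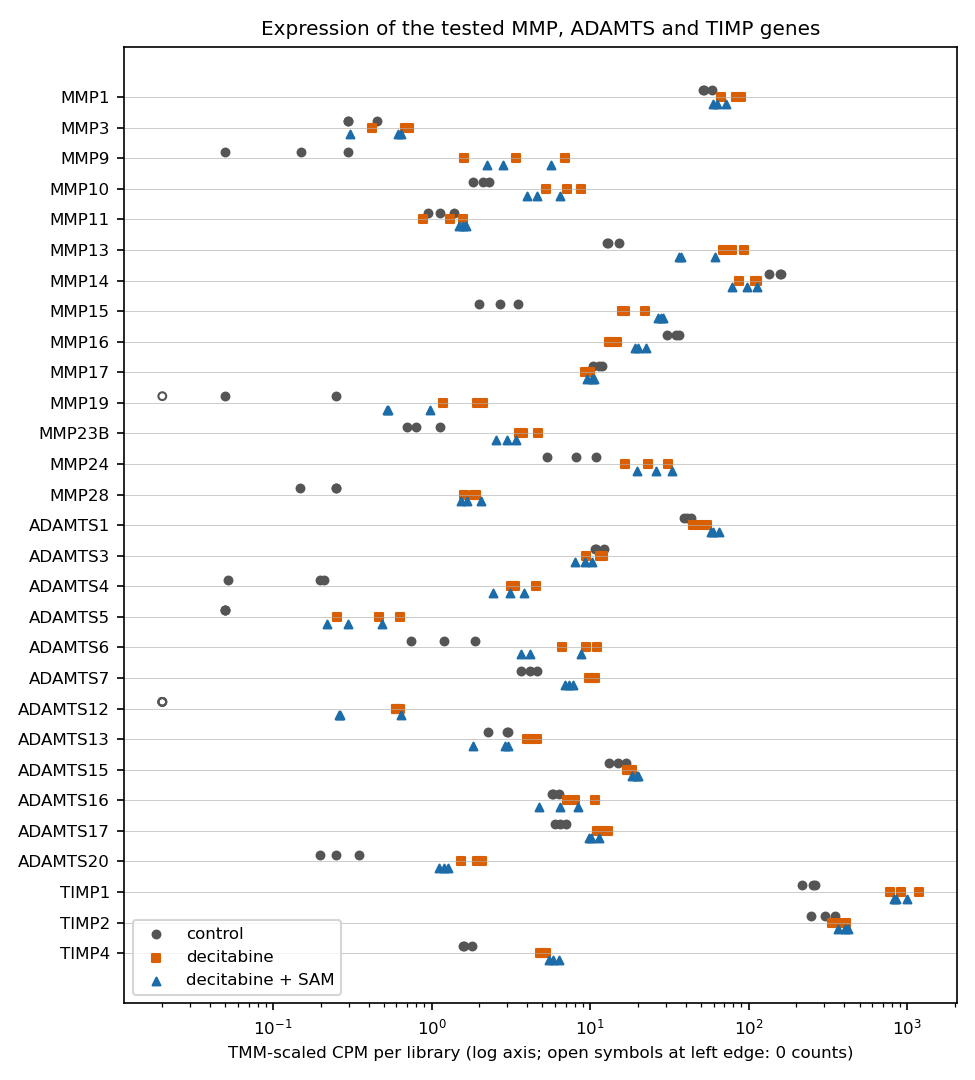
Levels of the 29 tested MMP, ADAMTS and TIMP genes in each library (x axis, TMM-scaled CPM on a log scale; y axis, gene), with 3 control (grey circles), 3 decitabine (orange squares) and 3 decitabine plus SAM libraries (blue triangles); open symbols at the left edge are libraries with 0 counts. TIMP1 and TIMP2 lie furthest right in every group, and for MMP9, MMP15, MMP19, MMP28, ADAMTS4 and ADAMTS20 the treated libraries lie well to the right of the control libraries.

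Promoter sequences of 6 members are shown because decitabine acts on DNA methylation, which in human cells sits mainly on cytosines followed by guanine (CpG), and because these 6 cover 3 of the inhibitors and the range from a CpG-poor to a CpG-rich promoter. Each runs from 250 bases before to 50 bases after the RefSeq transcription start on GRCh38.p14, 5′ to 3′ on the strand of the gene, with CpG sites in capitals. The windows are chrX:47582186-47582485 on the plus strand for TIMP1, chr3:12158863-12159162 on the minus strand for TIMP4, chr22:32801455-32801754 on the plus strand for TIMP3, chr16:58025504-58025803 on the plus strand for MMP15, chr14:22836335-22836634 on the plus strand for MMP14 and chr11:102780579-102780878 on the minus strand for MMP10.
TIMP1: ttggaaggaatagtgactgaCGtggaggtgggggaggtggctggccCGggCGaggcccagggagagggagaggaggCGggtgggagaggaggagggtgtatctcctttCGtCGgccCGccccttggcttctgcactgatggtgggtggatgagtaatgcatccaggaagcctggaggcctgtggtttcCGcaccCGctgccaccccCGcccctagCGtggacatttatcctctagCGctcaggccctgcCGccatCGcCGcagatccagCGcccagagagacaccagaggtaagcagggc
TIMP4: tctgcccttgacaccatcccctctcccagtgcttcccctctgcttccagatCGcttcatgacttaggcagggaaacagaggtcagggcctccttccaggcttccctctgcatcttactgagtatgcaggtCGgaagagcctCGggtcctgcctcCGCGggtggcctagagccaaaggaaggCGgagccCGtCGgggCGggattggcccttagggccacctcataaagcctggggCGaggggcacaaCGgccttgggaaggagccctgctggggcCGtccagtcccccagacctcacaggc
TIMP3: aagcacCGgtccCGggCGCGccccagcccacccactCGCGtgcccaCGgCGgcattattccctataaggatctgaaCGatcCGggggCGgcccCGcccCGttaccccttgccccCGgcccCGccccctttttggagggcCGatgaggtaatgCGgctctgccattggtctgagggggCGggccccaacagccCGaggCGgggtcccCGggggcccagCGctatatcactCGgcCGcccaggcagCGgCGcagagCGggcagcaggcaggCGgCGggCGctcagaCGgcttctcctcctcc
MMP15: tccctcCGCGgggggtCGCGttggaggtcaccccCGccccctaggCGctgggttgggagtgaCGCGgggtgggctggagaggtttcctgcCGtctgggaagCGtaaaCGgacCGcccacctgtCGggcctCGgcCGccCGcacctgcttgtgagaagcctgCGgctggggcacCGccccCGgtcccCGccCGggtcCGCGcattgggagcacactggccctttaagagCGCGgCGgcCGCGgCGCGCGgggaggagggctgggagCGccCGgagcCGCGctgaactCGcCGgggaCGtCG
MMP14: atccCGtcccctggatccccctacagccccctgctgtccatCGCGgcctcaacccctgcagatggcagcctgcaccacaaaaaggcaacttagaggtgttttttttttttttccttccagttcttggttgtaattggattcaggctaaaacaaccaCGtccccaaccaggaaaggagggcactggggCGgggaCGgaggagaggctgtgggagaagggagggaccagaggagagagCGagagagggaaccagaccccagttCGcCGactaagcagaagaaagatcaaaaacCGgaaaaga
MMP10: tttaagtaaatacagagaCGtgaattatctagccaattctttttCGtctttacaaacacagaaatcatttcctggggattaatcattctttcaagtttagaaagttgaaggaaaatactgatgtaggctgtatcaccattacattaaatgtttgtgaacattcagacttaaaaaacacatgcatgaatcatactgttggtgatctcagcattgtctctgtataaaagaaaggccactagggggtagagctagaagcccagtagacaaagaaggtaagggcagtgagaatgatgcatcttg

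The MMP10 window held 2 CpG sites, MMP14 held 10, TIMP4 held 12, TIMP1 held 16, TIMP3 held 31 and MMP15 held 39. RefSeq windows were found for 27 of the 46 members, and their CpG counts had a median of 24, beside a median of 14 and quartiles of 4 and 28 over all 35116 windows. The MMP genes without a window were MMP1, MMP2, MMP3, MMP9, MMP12, MMP13, MMP16, MMP17, MMP19, MMP25 and MMP28. ADAMTS1, ADAMTS4, ADAMTS5, ADAMTS8, ADAMTS9, ADAMTS15, ADAMTS16 and TIMP2 had none either. Among the 27, the 12 members that were upregulated with decitabine had a median of 22.5 CpG sites, the 3 tested members that were not had a median of 28, and the 12 members too low to be tested had a median of 17.5. MMP10 and MMP15, with 2 and 39 sites, were both upregulated by decitabine. With 10 and 12 sites, MMP14 was downregulated and TIMP4 upregulated. Whether the CpG count goes with the fold change was not tested. DNA methylation itself is not part of these values.

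Letter patterns known from MMP promoters were searched in the same windows. Members without a window, MMP1, MMP3, MMP9 and MMP13 among them, were therefore not searched. The letters of the AP-1 motif, TGANTCA, which reads the same on both strands, were found in 4 of the 27 windows (14.8%), against 7.71% of all windows: MMP7, MMP10, MMP20 and ADAMTS12. In the MMP10 sequence printed above they lie 67 bases before the start. TATAAA on the strand of the gene was found in 6 windows (22.2%), against 7.33% of all windows, and GGAAG on either strand, the core of ETS factor motifs, in 22 windows (81.5%), against 71.9% of all windows. These matches are descriptions of letters, with no measure of binding.

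**Figure D2:**
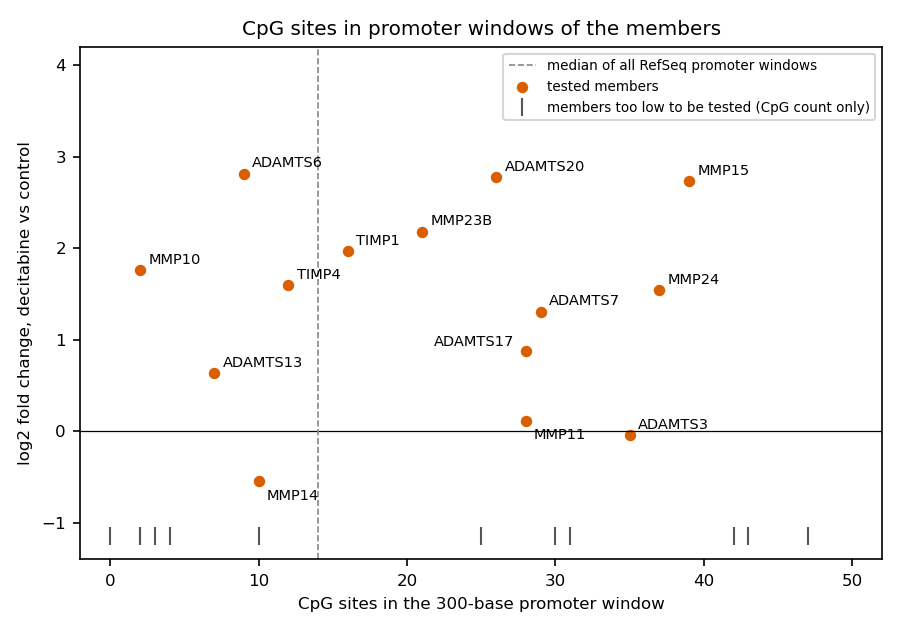
CpG sites in the 300-base RefSeq promoter window (x axis, number of sites) and log2FC with decitabine against control (y axis) for 14 tested members; ADAMTS12, with 0 control counts, is left out, ticks at the bottom mark members too low to be tested, and the dashed line is the median of 14 sites over all windows. Upregulated members spread from MMP10 at 2 sites to MMP15 at 39 sites.

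Among the collagenases, which cut fibrillar collagen, MMP13 and MMP1 were upregulated and MMP8, the neutrophil enzyme, was absent but for 1 count in 1 combination-treated library. MMP13 (chr11:102942995-102955732) was at 15.2, 13 and 12.8 CPM in the control libraries, at 68.4, 78.1 and 92.9 CPM with decitabine and at 36.3, 37.7 and 61.3 CPM with the combination treatment. The 3 groups did not overlap, and the combination libraries lay between the other groups. Against control the log2FC was 2.55 ± 0.22 (SE, n = 3 per group) under decitabine (adjusted p = 1e-05) and 1.72 ± 0.22 under the combination treatment (adjusted p = 0.00014). The direct comparison gave -0.82 ± 0.20 (adjusted p = 0.03), about 0.565 times the decitabine level. That call ended without control replicate 2, decitabine replicate 2 or 3, or combination replicate 1 or 2, with log2FC between -0.69 and -0.84 and adjusted p between 0.052 and 0.1, and in a fit of the 6 treated libraries alone (-0.83, adjusted p = 0.067).

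MMP1 (chr11:102789401-102798160) was at 58.5, 51.9 and 51.7 CPM in the control libraries, at 89.5, 82.9 and 67.3 CPM with decitabine and at 72.4, 59.3 and 62.9 CPM with the combination treatment. Both treated groups lay above the control libraries, narrowly in the case of the combination treatment, and they overlapped each other. The log2FC was 0.56 ± 0.11 under decitabine (adjusted p = 0.00029) and 0.26 ± 0.11 under the combination treatment (adjusted p = 0.04). The latter call ended without control replicate 2 or 3, decitabine replicate 2, or combination replicate 1 or 3, with log2FC from 0.17 to 0.28 and adjusted p from 0.057 to 0.2, and with voom and limma (0.26, adjusted p = 0.055).

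The gelatinases degrade denatured collagen and the type IV collagen of basement membranes, and only one of the pair was expressed at a level that could be tested. MMP9 (chr20:46008908-46016561) stood at 0.149, 0.05 and 0.296 CPM in the control libraries, at 1.61, 3.42 and 6.99 CPM with decitabine and at 2.22, 2.82 and 5.62 CPM with the combination treatment. Every treated library lay above every control library, with a wide spread inside both treated groups. The log2FC was 4.55 ± 0.87 under decitabine (adjusted p = 0.0017) and 4.38 ± 0.88 under the combination treatment (adjusted p = 0.0023). Without decitabine replicate 3, the highest library, the first value was 3.88, and without control replicate 3 the values were 5.24 and 5.07, all of them called. SLC12A5-AS1, on the opposite strand, overlaps MMP9 exons with 5.0, 25 and 23.7 counts on average. Between the treatments the difference was -0.17, with a 95% interval from -1.42 to 1.08 (adjusted p = 0.86). MMP2 was near absent, with 0, 0 and 1 counts in the control libraries, 0, 3 and 1 with decitabine and 1, 1 and 1 with the combination treatment.

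The stromelysins, which have a broad range of matrix substrates and can activate other proenzymes, differed among themselves. MMP10 rose from a mean of 2.07 ± 0.23 CPM (SD, n = 3) to 7.04 ± 1.73 CPM with decitabine and 5.03 ± 1.27 CPM with the combination treatment, a log2FC of 1.76 (adjusted p = 9.2e-06) and 1.28 (adjusted p = 0.00022). MMP3 had a log2FC of 0.79 (95% interval -0.09 to 1.67) and 0.57 (-0.33 to 1.47) at mean levels of 0.348 to 0.607 CPM, and was not called. MMP11 had 0.11 (-0.46 to 0.69) and 0.44 (-0.12 to 1.01) and was not called either.

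The small matrilysins and the macrophage elastase MMP12 were too low for the test. MMP7 had 0, 0 and 2 counts in the control libraries, 8, 10 and 17 with decitabine and 7, 8 and 11 with the combination treatment. Scaled to the libraries, these are ratios of 14.9 (95% counting interval 3.83 to 128) and 11.3 (2.84 to 98.7). MMP12 had 0 counts in every control library, 3, 3 and 7 with decitabine and 4, 4 and 3 with the combination treatment, which is at least 3.69-fold and at least 3.20-fold higher when 3 counts over the control group are taken as the floor. Treated libraries were above the control libraries for both genes. MMP26 had no count in any of the 9 libraries.

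MMP7, MMP20, MMP27, MMP8, MMP10, MMP1, MMP3, MMP12 and MMP13 lie in that order on the minus strand of chromosome 11 between 102520508 and 102955732 (GRCh38). Within this cluster MMP1, MMP10 and MMP13 were upregulated by both treatments and MMP3 was not called. MMP7 and MMP12 had at most 17 and 7 counts in any library, MMP20 had at most 2 counts in any library, MMP8 had at most 1 and MMP27 had 0.

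The membrane-anchored MMPs, which act at the cell surface, moved in both directions. MMP14 (MT1-MMP, chr14:22836560-22849041), the main cell surface collagenase and the activator of proMMP2, was at 135, 159 and 158 CPM in the control libraries, at 86.3, 110 and 112 CPM with decitabine and at 78.0, 98.2 and 112 CPM with the combination treatment. All treated libraries lay below all control libraries and the treated groups overlapped. The log2FC was -0.55 ± 0.14 under decitabine (adjusted p = 0.0038) and -0.65 ± 0.14 under the combination treatment (adjusted p = 0.0014). Scaled by library size alone, the first of these was -0.30 (adjusted p = 0.093). MMP14 was the most abundant MMP per length in the control libraries, at 32.6 CPM per kb of exons, followed by MMP1 at 19.7 CPM per kb.

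MMP15 (MT2-MMP, chr16:58025754-58046901), whose CpG-rich promoter is printed above, showed the opposite course. Its level was 1.99, 2.70 and 3.50 CPM in the control libraries, 15.8, 16.6 and 22.2 CPM with decitabine and 26.8, 28.8 and 28.0 CPM with the combination treatment. The 3 groups were apart, rising from control to decitabine to the combination treatment. The log2FC against control was 2.74 ± 0.18 (adjusted p = 1.6e-08) and 3.35 ± 0.18 (adjusted p = 2.3e-09). The combination treatment exceeded decitabine by 0.61 ± 0.14 (adjusted p = 0.013), a fold of 1.53, and this call ended without decitabine replicate 2 (0.55, adjusted p = 0.074) or combination replicate 2 (0.59, adjusted p = 0.065).

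MMP16 (MT3-MMP) was the only tested member with a log2FC below -1 against control, which it reached under decitabine. It stood at 36.3, 30.4 and 35.0 CPM in the control libraries, at 13.3, 13.1 and 14.7 CPM with decitabine and at 19.99, 22.5 and 19.1 CPM with the combination treatment. Decitabine libraries were lowest, combination libraries lay between, and no groups overlapped. The log2FC was -1.31 ± 0.10 with decitabine (adjusted p = 5e-08), -0.72 ± 0.10 with the combination treatment (adjusted p = 1.3e-05) and 0.58 ± 0.10 between the treatments (adjusted p = 0.0027). It was the one member of the 7 called between the treatments that was called under all 17 alternative fits. A lncRNA on the opposite strand overlaps its exons and had 5.3, 21.0 and 7.4 counts on average in the control, decitabine and combination groups, far fewer than MMP16.

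MMP24 (MT5-MMP, known from neural tissue) rose from 8.09 ± 2.72 CPM (SD, n = 3) to 23.6 ± 7.27 CPM with decitabine and 26.3 ± 6.54 CPM with the combination treatment, a log2FC of 1.54 (adjusted p = 0.0044) and 1.70 (adjusted p = 0.0028). MMP17, which is held to the membrane by a lipid anchor, had -0.21 (95% interval -0.44 to 0.01) and -0.15 (-0.37 to 0.08) and was not called. MMP25, the other lipid-anchored member, had 0, 1 and 0 counts in the control libraries, 7, 9 and 8 with decitabine and 3, 10 and 4 with the combination treatment. MMP24OS overlaps exons of MMP24 on the opposite strand and had 508, 548 and 545 counts on average in the 3 groups.

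The remaining MMPs with enough counts, MMP19, MMP23B and MMP28, were all upregulated by both treatments from low control levels. MMP19 (chr12:55835433-55842966), which cuts basement membrane proteins, was at 0.0496, 0.250 and 0 CPM in the control libraries, at 1.18, 1.94 and 2.12 CPM with decitabine and at 0.522, 0.528 and 0.980 CPM with the combination treatment. No groups overlapped, and the combination libraries were in the middle. The log2FC was 4.06 ± 0.58 under decitabine (adjusted p = 2.2e-05) and 2.70 ± 0.66 under the combination treatment (adjusted p = 0.0022), and without control replicate 2 these were 5.85 and 4.49. Between the treatments it was -1.36 ± 0.40 (adjusted p = 0.036), the lowest of the 29 members. That call ended without decitabine replicate 2 or 3 or combination replicate 1 or 2 (-1.20 to -1.28, adjusted p 0.088 to 0.15). TMEM198B, on the opposite strand, overlaps MMP19 exons and had 285, 459 and 238 counts on average in the 3 groups. Its reads and those of MMP19 may not be separable, since strand use in counting is not stated.

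MMP23B, an MMP without the usual hemopexin domain, stood at 0.695, 0.800 and 1.14 CPM in the control libraries, at 3.75, 3.54 and 4.70 CPM with decitabine and at 3.43, 2.55 and 2.98 CPM with the combination treatment. The log2FC was 2.18 (adjusted p = 1.6e-06) and 1.76 (adjusted p = 1.7e-05). All treated libraries exceeded the control libraries, but the values are uncertain, because CDK11B on the opposite strand overlaps its exons with 1996, 3670 and 3706 counts on average and the pseudogene MMP23A is a near-identical copy.

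MMP28 (epilysin) was at 0.248, 0.250 and 0.148 CPM in the control libraries, at 1.61, 1.90 and 1.86 CPM with decitabine and at 1.52, 1.67 and 2.04 CPM with the combination treatment. Treated groups were well above the control libraries and overlapped each other. The log2FC was 3.02 (adjusted p = 1.1e-06) and 2.99 (adjusted p = 1.4e-06), and the difference between the treatments was -0.03 (95% interval -0.51 to 0.45). MMP20 (enamelysin) and MMP21 had at most 2 counts and 1 count, respectively, in any library.

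**Figure D3:**
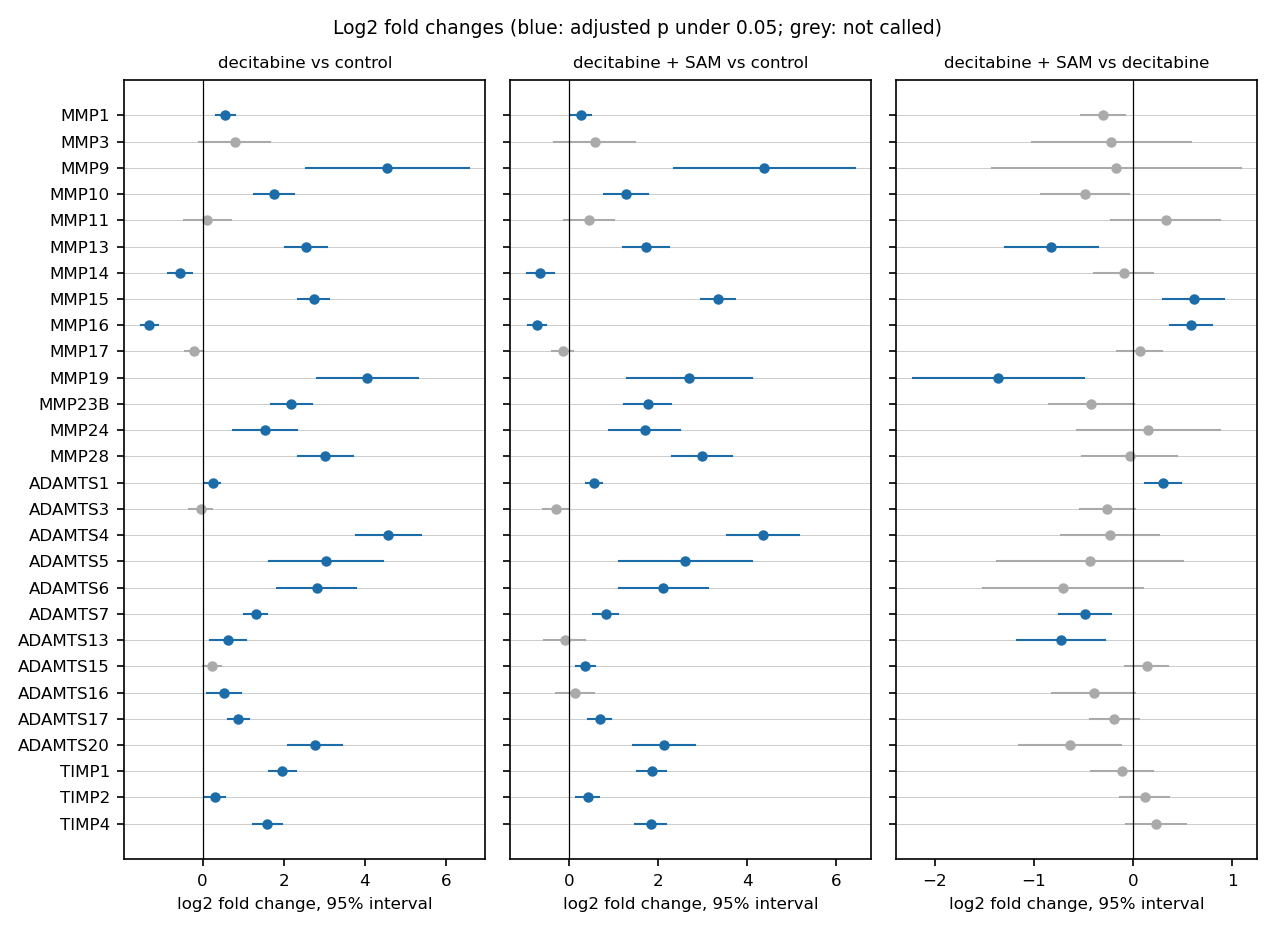
Log2FC with 95% intervals (x axes) of 28 tested members (y axis) for decitabine against control (left), decitabine plus SAM against control (middle) and decitabine plus SAM against decitabine (right); ADAMTS12, with 0 control counts, is left out, blue marks adjusted p under 0.05 and the x axes differ in range. MMP14 and MMP16 are the only blue points left of 0 against control, and the right panel has 3 blue points above 0 and 4 below.

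Among the ADAMTS genes, 10 of the 12 tested were upregulated by decitabine and 9 by the combination treatment. The class of proteoglycanases, which cut aggrecan, versican and related proteoglycans, had 5 tested members. ADAMTS4 (aggrecanase-1, chr1:161184302-161199054) was at 0.0522, 0.211 and 0.198 CPM in the control libraries, at 3.37, 4.57 and 3.15 CPM with decitabine and at 3.83, 3.13 and 2.45 CPM with the combination treatment. The treated groups overlapped each other and lay far above the control group. The log2FC was 4.58 ± 0.37 (adjusted p = 8.7e-08) and 4.35 ± 0.38 (adjusted p = 1.8e-07), folds of 23.9 and 20.3.

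ADAMTS20 stood at 0.348, 0.250 and 0.198 CPM in the control libraries, at 1.95, 2.07 and 1.52 CPM with decitabine and at 1.26, 1.19 and 1.11 CPM with the combination treatment. The groups were apart, with the combination libraries in the middle. Its log2FC was 2.77 (adjusted p = 2.1e-06) and 2.14 (adjusted p = 4.4e-05) against control and -0.64 between the treatments, which did not pass (adjusted p = 0.084). ADAMTS5 (aggrecanase-2) had 3 counts over the control libraries, 32 with decitabine and 23 with the combination treatment, ratios of 9.08 (95% counting interval 2.84 to 46.3) and 6.69 (2.02 to 34.8), and both were called (adjusted p = 0.00083 and 0.004).

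ADAMTS1, the ADAMTS gene with the most reads per length in every library, was at 40.9, 43.4 and 39.3 CPM in the control libraries, at 44.2, 54.5 and 48.4 CPM with decitabine and at 59.4, 64.7 and 57.6 CPM with the combination treatment. The groups did not overlap and rose in that order, the first step being small. The log2FC was 0.25 ± 0.09 with decitabine (adjusted p = 0.019), 0.56 ± 0.09 with the combination treatment (adjusted p = 5.6e-05) and 0.31 ± 0.09 between them (adjusted p = 0.029). The decitabine call ended without control replicate 1 or 3 or decitabine replicate 2 (0.16 to 0.24, adjusted p 0.056 to 0.13). The call between the treatments ended without decitabine replicate 1 or 3 or combination replicate 1 or 2 (0.24 to 0.32, adjusted p 0.055 to 0.14) and in a fit of the 6 treated libraries alone (0.30, adjusted p = 0.054).

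ADAMTS15 had 0.23 with decitabine (95% interval 0.01 to 0.45, adjusted p = 0.059) and was upregulated by 0.37 with the combination treatment (adjusted p = 0.0057), and the difference between these was 0.14 (95% interval -0.08 to 0.35). ADAMTS8 had 0, 0 and 1 counts in the control libraries, 9, 5 and 8 with decitabine and 6, 6 and 12 with the combination treatment, and ADAMTS9 had at most 4 counts in any library.

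Both enzymes known to cut cartilage oligomeric matrix protein, ADAMTS7 and ADAMTS12, were upregulated. ADAMTS7 (chr15:78759206-78811464) was at 3.67, 4.60 and 4.2 CPM in the control libraries, at 10.7, 10.3 and 9.87 CPM with decitabine and at 7.35, 6.95 and 7.79 CPM with the combination treatment. The spread inside each group was small and the 3 groups did not overlap. The log2FC was 1.31 ± 0.13 (adjusted p = 7.3e-07) and 0.83 ± 0.13 (adjusted p = 7.5e-05) against control and -0.48 ± 0.12 between the treatments (adjusted p = 0.018). This last call ended without decitabine replicate 1 or 2 or combination replicate 1 or 2 (-0.44 to -0.48, adjusted p 0.059 to 0.099). ADAMTS12 had 0 counts in every control library, 14, 15 and 14 with decitabine and 6, 6 and 15 with the combination treatment, at least 12.2-fold and at least 7.86-fold higher with 3 counts over the control group as the floor.

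ADAMTS13, the protease of von Willebrand factor, differed between the treatments. It stood at 2.98, 3.05 and 2.27 CPM in the control libraries, at 4.23, 4.01 and 4.62 CPM with decitabine and at 1.83, 3.04 and 2.90 CPM with the combination treatment. The decitabine libraries were above all others, and the combination libraries overlapped the control libraries. The log2FC was 0.63 ± 0.21 with decitabine (adjusted p = 0.014), which ended without control replicate 3 (0.50, adjusted p = 0.069). It was -0.10 with the combination treatment (95% interval -0.56 to 0.37, adjusted p = 0.71), a value that turned to 0.13 under scaling by library size alone. Between the treatments it was -0.73 ± 0.21 (adjusted p = 0.029), and this call ended without decitabine replicate 1, 2 or 3 or combination replicate 1 or 2 (-0.53 to -0.85, adjusted p 0.057 to 0.12).

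Of the pair tied to fibrillin microfibrils, ADAMTS6 was at 0.745, 1.20 and 1.88 CPM in the control libraries, at 6.60, 9.36 and 11.1 CPM with decitabine and at 4.18, 3.65 and 8.73 CPM with the combination treatment. Both treated groups were above control and overlapped each other. The log2FC was 2.82 ± 0.43 (adjusted p = 0.00028) and 2.11 ± 0.44 (adjusted p = 0.0021). ADAMTS10 had 0 counts in every control library, 6, 9 and 13 with decitabine and 7, 3 and 10 with the combination treatment, at least 7.94-fold and at least 5.82-fold higher by the same floor.

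Of the 3 procollagen N-proteinases, which trim the amino-terminal end of fibrillar procollagens, only ADAMTS3 could be tested, and it was not called. ADAMTS3 had -0.04 with decitabine (95% interval -0.32 to 0.24) and -0.30 with the combination treatment (-0.58 to -0.02, adjusted p = 0.055). ADAMTS2 had at most 3 counts in any library, and ADAMTS14 had 0, 1 and 0 counts in the control libraries, 6, 6 and 10 with decitabine and 2, 4 and 6 with the combination treatment. Scaled to the libraries, the ADAMTS14 ratios were 18.7 (95% counting interval 3.03 to 773) and 10.5 (1.55 to 448).

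ADAMTS17, known from inherited short stature with eye defects, was upregulated with a log2FC of 0.88 (adjusted p = 1.6e-05) and 0.69 (adjusted p = 0.00016). ADAMTS16 was upregulated by decitabine alone (0.53, adjusted p = 0.027), a call that ended without control replicate 1 or 2 or decitabine replicate 3 (at the lowest 0.34), and it had 0.14 with the combination treatment (95% interval -0.30 to 0.57). The difference between the treatments for ADAMTS16 did not pass (-0.40, adjusted p = 0.18). ADAMTS18 and ADAMTS19 had at most 2 and 4 counts in any library.

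All 3 TIMP genes that could be tested were upregulated by both treatments. Of all genes, 36.3% were upregulated by decitabine and 35.9% by the combination treatment. TIMP1 (chrX:47582408-47586789), a secreted inhibitor of most soluble MMPs, was at 217, 262 and 255 CPM in the control libraries, at 778, 908 and 1189 CPM with decitabine and at 844, 823 and 1000 CPM with the combination treatment. Treated libraries were all above 3 times the mean of the control libraries, and the treated groups overlapped. The log2FC was 1.97 ± 0.15 (adjusted p = 4e-07) and 1.86 ± 0.15 (adjusted p = 6.5e-07), folds of 3.92 and 3.63. Between the treatments it was -0.11, with a 95% interval from -0.42 to 0.21.

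TIMP4 (chr3:12153068-12158912) was at 1.79, 1.60 and 1.58 CPM in the control libraries, at 4.95, 4.85 and 5.29 CPM with decitabine and at 6.40, 5.81 and 5.54 CPM with the combination treatment. The groups did not overlap, with the control libraries lowest and the combination libraries highest. The log2FC was 1.60 ± 0.16 (adjusted p = 8.9e-07) and 1.83 ± 0.16 (adjusted p = 2.2e-07), with 0.23 between the treatments (95% interval -0.07 to 0.54, adjusted p = 0.29).

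TIMP2 (chr17:78852977-78925387), which both inhibits MMPs and takes part in the activation of proMMP2 by MMP14, was at 249, 301 and 349 CPM in the control libraries, at 334, 360 and 410 CPM with decitabine and at 366, 407 and 425 CPM with the combination treatment. The decitabine libraries overlapped the control libraries and the combination libraries lay just above them. The log2FC was 0.30 ± 0.11 (adjusted p = 0.034) and 0.42 ± 0.11 (adjusted p = 0.0058). The decitabine call ended without control replicate 1 or 2 or decitabine replicate 2 or 3 (0.17 to 0.31, adjusted p 0.062 to 0.17). TIMP3, the matrix-bound inhibitor that also blocks ADAMTS4 and ADAMTS5, whose CpG-rich promoter is printed above, was near 0, with 0, 1 and 0 counts in the control libraries, 2, 2 and 3 with decitabine and 0, 0 and 3 with the combination treatment.

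**Figure D4:**
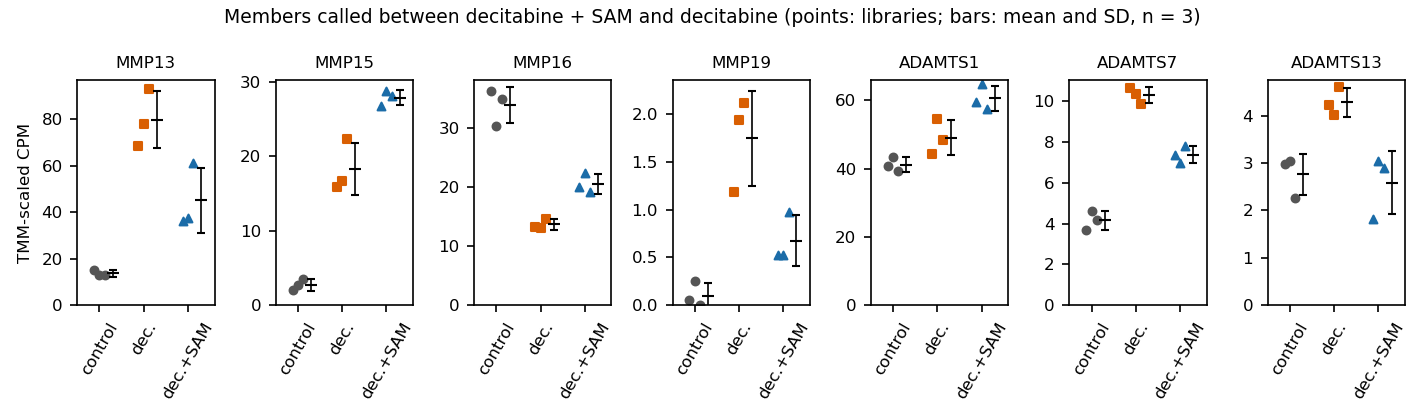
The 7 members called between decitabine plus SAM and decitabine alone, 1 panel each (y axis, TMM-scaled CPM from 0; x axis, group), with points for libraries and black bars for the mean and SD of 3 libraries. MMP15 and ADAMTS1 rise from control to decitabine to the combination treatment, MMP13, MMP19 and ADAMTS7 have the combination treatment between control and decitabine, MMP16 has it between them from below, and ADAMTS13 has it overlapping control.

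The 7 members called between the treatments thus had different courses. For MMP13, MMP19, ADAMTS7 and MMP16 the combination libraries lay between the control and the decitabine libraries. MMP15 and ADAMTS1 lay further from control with the combination treatment than with decitabine alone, and the combination libraries of ADAMTS13 overlapped the control libraries. Of the 7 calls, MMP19 alone had a log2FC beyond 1 in size.

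Summed per length of exons, TIMP transcripts stood further above the control level in treated cells than MMP or ADAMTS transcripts. The 23 MMP genes summed to 65.7 to 68.6 CPM per kb in the control libraries, 95.5 to 108 CPM per kb under decitabine and 78.8 to 95.4 CPM per kb under the combination treatment. The 19 ADAMTS genes summed to 12.3 to 13.1, 16.9 to 19 and 16.9 to 18.6 CPM per kb, and the 4 TIMP genes to 192 to 234, 596 to 893 and 640 to 765 CPM per kb. For each family the treated libraries lay above the control libraries. The treated groups overlapped in the ADAMTS and TIMP sums, and in the MMP sum the lowest decitabine library lay just above the highest combination library. The TIMP sum was 2.92 to 3.41 times the MMP sum in the control libraries, 6.25 to 8.26 times under decitabine and 8.02 to 8.23 times under the combination treatment, given as a description of RNA without a test.

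A few genes carried these sums. TIMP1 made up 75.4% to 78.4% of the TIMP sum in the control libraries, 90.3% to 92.1% under decitabine and 89.0% to 90.4% under the combination treatment. Within the MMP sum, MMP14 went from 44.3% to 50.6% in the control libraries to 19.6% to 23% under decitabine and 21.4% to 26.7% under the combination treatment. MMP13 went from 6.58% to 8.19% of the MMP sum in the control libraries to 25.3% to 30.3% under decitabine and 16.3% to 22.7% under the combination treatment. In the decitabine libraries MMP1 or MMP13, both collagenases, led the MMP sum in place of MMP14.

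**Figure D5:**
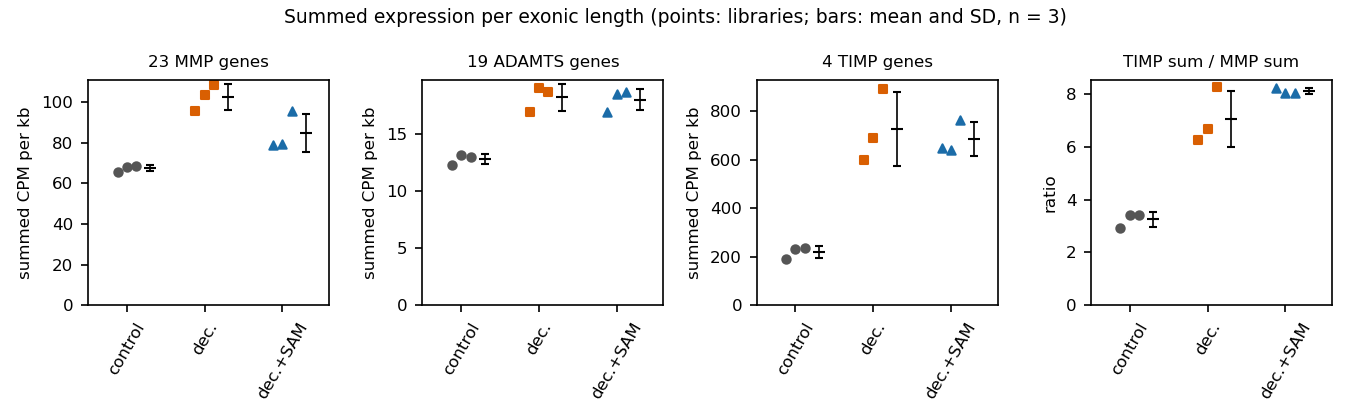
Summed level of the MMP, ADAMTS and TIMP genes per length of exons (y axes, CPM per kb) and the ratio of the TIMP sum to the MMP sum (right panel, no unit) by group (x axes), with points for libraries and black bars for the mean and SD of 3 libraries. The TIMP sum in treated libraries is at least 596 CPM per kb, above the 192 to 234 of the control libraries, and the ratio rises from 2.92 to 3.41 in the control libraries to at least 6.25.

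Genes that work with these families were counted from a separate list of 53, of which 47 were tested. Against control, decitabine upregulated 31 of the 47 (66.0%, beside 36.3% of all genes) and downregulated 13 (27.7%, beside 32.5%). The combination treatment upregulated 30 (63.8%, beside 35.9%) and downregulated 13 (27.7%, beside 31.3%), and between the treatments 1 was higher with the combination treatment (2.13%, beside 7.67%) and 7 were lower (14.9%, beside 8.02%). These shares of all genes also stand behind the counts by class that follow, in which genes near 0 in control cells entered the test through the treated libraries. The 9 matrix substrates that passed the filter were upregulated by both treatments, with BCAN, COMP and DCN at no more than 0.0334 CPM on average in the control group. Among them were FN1 (fibronectin), with a log2FC of 2.53 and 2.01 and a difference of -0.52 (adjusted p = 0.05), and BCAN (brevican), with 4.55 and 5.48 and a difference of 0.93 (adjusted p = 0.04). Of the 7 tested other inhibitors and clearance proteins, 4 were upregulated and 2 downregulated by decitabine and 4 and 3 by the combination treatment. TFPI2, a serine protease inhibitor found in the matrix, rose from 27.8 to 197 and 226 CPM on average (2.83 and 3.03), whereas RECK, a membrane-anchored inhibitor of MMPs, fell by 0.70 and 0.66 on the log2 scale and COL18A1, the source of endostatin, fell by 0.996 and 1.20. A2M, the plasma protease trap, was at 0 in every group.

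Of the 6 tested activators and inducers, 5 were upregulated and 1 downregulated by decitabine, and 4 were upregulated and 1 downregulated by the combination treatment. ST14 (matriptase) rose by 3.34 and 3.61 and FURIN, which cuts the propeptides of the membrane-type MMPs, rose by 0.67 and 0.71. The related convertase PCSK6 fell by 0.41 and 0.67 on the log2 scale, and PCSK5 and PCSK7 fell short of the decitabine level under the combination treatment (-0.65, adjusted p = 0.042, and -0.26, adjusted p = 0.03). Of the 6 tested ADAMTS-like proteins, which lack the protease domain, 4 were upregulated and 2 downregulated by each treatment. PAPLN, upregulated by 1.49 and 0.505, fell short of the decitabine level under the combination treatment (-0.98). The 2 downregulated genes, ADAMTSL3 (-0.36 and -0.79) and THSD4 (-0.58 and -0.94), were lower still with the combination treatment than with decitabine (-0.43 and -0.37). Of the 7 tested ADAM sheddases, 2 were upregulated and 4 downregulated by each treatment, with ADAM8 at 2.38 and 2.21 and ADAM15 at -0.55 and -0.87, the latter also called between the treatments (-0.32, adjusted p = 0.011). Of the 12 AP-1, ETS and RUNX factors known from MMP promoters, decitabine upregulated 7 and downregulated 4 and the combination treatment upregulated 7 and downregulated 3. FOSL1, the most abundant FOS member in the control libraries at 419 CPM, fell by 0.95 and 0.98, and FOS itself rose by 2.08 and 2.58.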

How the data were processed

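RNA-seq of 9 PC-3 libraries (3 control, 3 decitabine, 3 decitabine plus SAM) was analysed from the deposited tables of estimated counts per gene, which the authors made with kallisto from reads cleaned with Trim Galore 0.6.4 against GRCh38.p13, per the labels and the study's methods. How transcript estimates were summed to genes, and whether strand was used, is not given in the sources used here. Doses come from the study's methods and groups from the labels.

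The counts were rounded to whole numbers, filtered with filterByExpr (minimum count 10, minimum total 15), scaled by TMM and fitted with edgeR 4.0.16 (R 4.3.3), 1 mean per group over all 9 libraries, by the quasi-likelihood test with Benjamini-Hochberg adjustment over all 18532 genes tested and a threshold of 0.05. The script was checked on simulated data. CPM was computed from the same scaled library sizes, and CPM per kb uses the merged exon length in GENCODE. With 3 libraries a group, precision rests on 6 residual degrees of freedom. Intervals of count ratios and floors (3 counts over a group) cover counting error only. Alternatives were other scalings, filters, tools (DESeq2 1.42.0, limma 3.58.1 with voom, the test the study names), a replicate block, fewer libraries and a larger fold. No 2 libraries of the same group were copies of one another.

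Values in every library are given for members called between the treatments, for those with a log2FC of at least 2 in size against control and a group mean of 20 counts or more, for the TIMP genes, MMP1, MMP2, MMP7, MMP9 and MMP14, and as counts for members with no control counts and a mean of at least 3 in a treated group. Other members shown by library were added after their values were seen. The members, classes and lists were chosen with earlier results of these data known. Protein sequences were not used here.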

Additional observations from a re-analysis of the deposited data

How the results depend on the processing

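Counts of called members against control changed little with scaling, tool or a library left out, and more without a filter or with a fold threshold. Scaling by library size alone moved the median log2FC over all genes to 0.28 for decitabine and 0.27 for the combination, from 0.035 and 0.048. It gave 25 and 24 called members, where DESeq2 gave 24 and 23, voom with limma 24 and 22, and no filter 30 and 30 of 44 tested. Leaving out 1 library in turn gave 22 to 26 in both comparisons with control. A log2FC beyond 1 as well left 17 members for decitabine and 15 for the combination, and 1 between the treatments.

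The comparison between the treatments depended on single libraries: leaving out 1 in turn gave 1 to 9 called members, with the lowest counts without combination replicate 2 (1) and decitabine replicate 2 (2). DESeq2, voom with limma and a minimum mean of 10 counts gave 7 each, the 6 treated libraries alone gave 5, library size alone gave 8 and no filter gave 9. For MMP19, DESeq2 gave no adjusted p in this comparison.

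Replicate numbers are shared between groups. Deviations of same-numbered libraries from their group means correlated at -0.0165 to 0.233, and those of different-numbered libraries at -0.22 to 0.0579. The highest values were between the treated groups, at 0.233 for replicate 1 and 0.229 for replicate 3, with 0.0359 for replicate 2. Against control, not every library correlated best with its own number. The labels name no shared culture or day, so whether same-numbered libraries shared one cannot be told. A fit with the number as a replicate block called 25, 24 and 10 members, beside 24, 23 and 7 without it.

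Of 917 refitted values of the members given in full, 859 kept their direction and their side of the threshold, 41 lost the call, 9 gained it and 8 turned direction, and no called member turned direction. Those that turned were not called: ADAMTS13 with the combination treatment against control, at 0.13 under library size alone and -0.23 to 0.09 on leaving out 1 library, and between the treatments, on leaving out 1 library, MMP9 (-0.67 to 0.50), MMP14 (-0.22 to 0.03), MMP28 (-0.16 to 0.05) and TIMP1 (-0.24 to 0.08). Values of single refits were 0.501 and 0.075 for MMP9, 0.032 for MMP14, 0.011 and 0.052 for MMP28, 0.077 for TIMP1, and 0.126 and 0.089 for ADAMTS13. The cause was not tested. At totals of 21934307 to 22489684 counts a library, 17 members were too low for a test.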
